A study of Mus musculus with 9 samples.

Results

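Genes of the mitotic spindle, the kinetochore and cytokinesis were followed across 3 myeloid populations of normal mouse bone marrow, each measured on 3 Affymetrix expression arrays. The set holds 52 genes listed by their role in cell division, and each is represented by the brightest probe set that the platform annotation assigns to that gene alone. Of the 52 genes, 51 were measured, out of 18193 genes in all. Ccnb1, which encodes cyclin B1, is named by no probe set in the annotation used. The mice were C57BL/6, an inbred strain, 4 to 10 weeks old and male or female, with no genetic change or treatment stated for any group. Mac1- myeloblasts were c-kit+ Gr1+ cells with Mac1 low or absent, and Mac1+ myeloblasts were c-kit+ Gr1+ cells that carried it. Both lacked the antigens B220, TER119, CD3, CD4, CD8 and IL7Rα. Neutrophils were c-kit- Gr1+ Mac1+ cells. The labels do not say whether replicates came from separate or pooled animals, so p-values reflect the variation among these arrays alone, and that may be technical. In sorted bulk RNA, fewer cells in division and less RNA per dividing cell cannot be told apart.

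A cell enters mitosis when Cdk1, bound to A-type and B-type cyclins and freed by the Cdc25 phosphatases, phosphorylates its targets. Condensin packs the chromosomes, kinesins and Tpx2 build the spindle, kinetochores attach to it, and the spindle checkpoint holds back Cdc20 and the anaphase-promoting complex until every kinetochore is attached. Separase then parts the sister chromatids, and the central spindle and the contractile ring divide the cell. In marrow, granulocyte precursors divide up to the myelocyte stage, and mature neutrophils no longer divide.

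Intensities on a linear scale had a median between 39.1 and 61.8 per array, the highest on neutrophil array 1. Levels are given as log2(intensity + 16), and differences on this scale understate the change of dim genes. Kit, which encodes the c-kit antigen, stood at 11.56, 11.66 and 11.66 in Mac1- cells, at 11.71, 11.64 and 11.77 in Mac1+ cells and at 6.79, 8.28 and 8.44 in neutrophils. Itgam, the alpha chain of Mac1, stood at 6.49, 6.41 and 6.45, then 9.87, 9.71 and 9.47, then 11.00, 11.80 and 11.85. Both follow the labels of the sort. Neutrophil array 1 stood apart from its replicates (Pearson r over all genes 0.9402 and 0.9261, against 0.9859 between arrays 2 and 3), whereas replicates of the c-kit+ populations correlated at 0.9867 to 0.9943. Counts of calls between the c-kit+ populations, and some differences that moved, are also given without that array.

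Many genes of this kind share promoter elements, which can be read in the RefSeq promoter table (GRCm38.p6, 250 bases before to 50 after each gene's start). The CCAAT box (CCAAT) is the element of the factor NF-Y, and the cell cycle genes homology region, or CHR (TTTGAA or TTCGAA), is the element of the DREAM and MuvB complexes. The promoters of the 4 genes with the largest called differences between the c-kit+ populations that the table holds are shown from 250 bases before to 30 bases after the start. Capitals mark CHR and CCAAT matches on either strand, written as they read on the strand shown, so that a match on the other strand reads TTCAAA or ATTGG. Ube2c lies at chr2:164769679-164769958, Plk1 at chr7:122159185-122159464, Cenpe at chr3:135212313-135212592 and Prc1 at chr7:80294201-80294480, all on the plus strand.
Ube2c: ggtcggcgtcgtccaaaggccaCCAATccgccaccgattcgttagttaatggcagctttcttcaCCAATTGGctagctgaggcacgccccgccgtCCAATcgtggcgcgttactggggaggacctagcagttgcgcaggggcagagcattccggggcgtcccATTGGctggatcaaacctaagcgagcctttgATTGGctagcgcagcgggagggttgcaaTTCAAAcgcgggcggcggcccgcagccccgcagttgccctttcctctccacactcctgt
Plk1: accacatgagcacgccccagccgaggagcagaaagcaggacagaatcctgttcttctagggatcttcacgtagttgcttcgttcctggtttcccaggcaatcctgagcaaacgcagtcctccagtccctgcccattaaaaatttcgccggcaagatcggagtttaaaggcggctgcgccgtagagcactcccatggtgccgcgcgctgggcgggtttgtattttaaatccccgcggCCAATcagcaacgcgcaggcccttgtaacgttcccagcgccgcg
Cenpe: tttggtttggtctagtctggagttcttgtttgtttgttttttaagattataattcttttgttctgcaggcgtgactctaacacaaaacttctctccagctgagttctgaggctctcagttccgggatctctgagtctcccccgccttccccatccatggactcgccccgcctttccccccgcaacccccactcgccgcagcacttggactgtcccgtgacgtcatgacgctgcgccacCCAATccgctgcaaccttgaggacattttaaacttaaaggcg
Prc1: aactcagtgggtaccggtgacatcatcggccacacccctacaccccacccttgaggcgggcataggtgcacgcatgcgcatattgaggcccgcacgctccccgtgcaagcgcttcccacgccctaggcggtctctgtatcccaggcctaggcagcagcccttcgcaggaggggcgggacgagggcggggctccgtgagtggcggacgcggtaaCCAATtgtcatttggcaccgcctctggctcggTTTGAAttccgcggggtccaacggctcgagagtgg
The Ube2c promoter holds 6 CCAAT matches, of which those at -186 and -183 overlap on opposite strands, and a CHR match at -29. Prc1, for which the table lists 2 windows, holds a CCAAT match at -37 and a CHR match at -5. Plk1 has a CCAAT match at -14 and a CHR match at 31, just past the stretch shown, whereas Cenpe has a CCAAT match at -12 and no CHR match in its window.

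The table holds promoters of 43 of the 52 genes, in 48 windows. A CHR match stood in 70.8% of the member windows, in 44.4% of windows of other mitotic genes, in 17.1% of windows of DNA replication genes and in 19.2% of all 32851 windows of the same length. CCAAT matches stood in 79.2% of member windows against 37.4% of all windows, and both elements together in 64.6% against 7.52%. The core of the E2F element was searched on either strand as TTCCCGC, with TTGGCGC as a variant form and with TTCGCGC as another. It stood in 22.9% of member windows, 27.0% of windows of other mitotic genes and 60.0% of windows of DNA replication genes, against 8.07% of all windows. Members thus held it more often than all windows and less often than the replication genes, by these shares alone. Matches of different elements may overlap, and windows of neighbouring genes can share sequence. The 31 measured members with a CHR match had a median difference of 0.70 between Mac1+ and Mac1- cells, with 11 called higher, and the 11 without one had a median of 0.39, with 3 called. For CCAAT the medians were 0.69 in 32 members with a match (11 called) and 0.49 in 10 without (3 called). For E2F they were 0.65 in 9 members with a match (2 called) and 0.72 in 33 without (12 called). None of these splits was tested. A match is a description of letters in a window and not a site or a cause.

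The first comparison asks how expression of the division machinery differs between c-kit+ Gr1+ cells with and without Mac1. It was higher in Mac1+ myeloblasts for nearly every member, by a modest amount: 50 of 51 differences were above 0 (49 with quantile normalization, 51 with arrays centred on their medians), with a median of 0.69, or 1.61-fold, against -0.01 over all genes. In limma's test with Benjamini-Hochberg adjustment over all genes, 19 members were called higher, where 6.31% of all genes were, and 0 were called lower, where 5.51% of all genes were. At an unadjusted p under 0.05 these counts were 33 and 0. All genes include dim ones, whereas the members were above the array median on all 6 c-kit+ arrays. With dim genes filtered out by mean level, 13.3% of genes were called higher and 10.1% lower. The 19 calls are 37.3% of the members. On the arrays themselves, 47 members had all 3 Mac1+ values above all 3 Mac1- values, against 19.8% of all genes. The other 4, Melk, Pttg1, Cenph and Anln, overlapped. Differences ran from -0.15 (Pttg1) to 1.87 (Ube2c).

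The number of calls moved with the arrays that set the estimate of the spread. All 9 arrays share 1 estimate for each gene, and the median SD of members was 0.09 in Mac1- cells, 0.10 in Mac1+ cells and 0.34 in neutrophils. Without neutrophil array 1, which enters this comparison only through the spread, 40 members were called higher, where 12.0% of all genes were. With only the 6 c-kit+ arrays, 45 were called, where 12.5% of all genes were. Leaving out a c-kit+ array gave 10 calls (without Mac1- array 2, Mac1- array 3 or Mac1+ array 3), 11 (without Mac1+ array 1 or 2) or 14 (without Mac1- array 1), and every one of these was among the 19. The 8 members called under all 19 alternative settings were Plk1, Cdc20, Ube2c, Cenpe, Kif2c, Kif4, Tpx2 and Kif23.

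**Figure D1:**
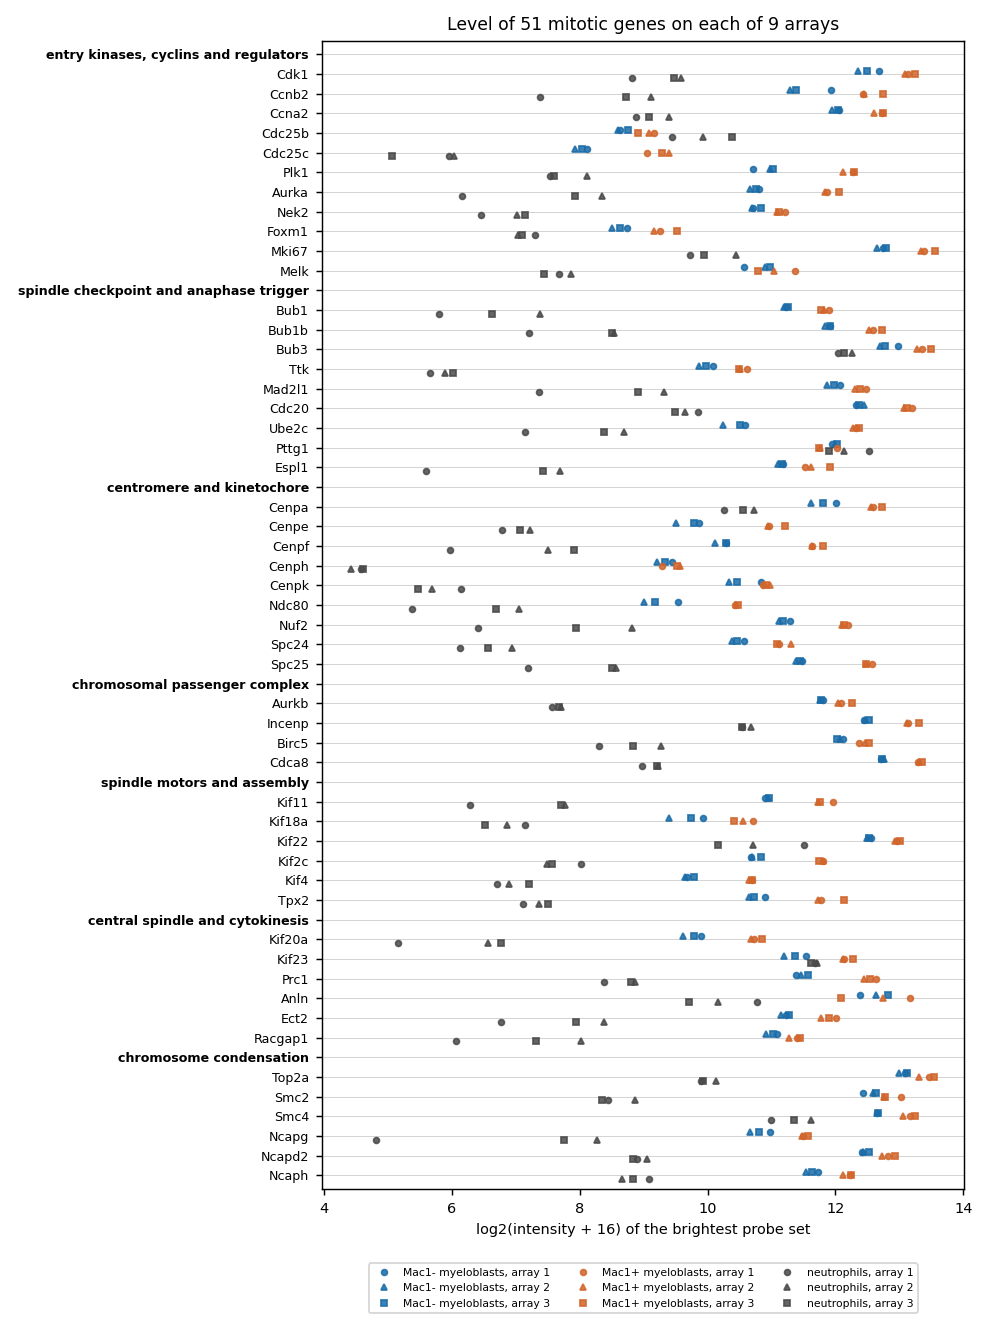
Level of each of the 51 measured genes, as log2(intensity + 16) of its brightest probe set, on the 9 arrays; genes are grouped by role, colour gives the population and the marker's shape the array. Mac1+ values sit above Mac1- values without overlap in 47 genes, and neutrophil values lie far to the left in nearly all rows except Cdc25b, Pttg1, Kif23 and Bub3.

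Among the kinases, cyclins and regulators of mitotic entry, 4 of 11 measured genes were called higher in Mac1+ cells (9 without neutrophil array 1), with a median difference of 0.69. Beside the counts of this and each later role group, 6.31% of all genes were called higher, and 12.0% without neutrophil array 1. With dim genes filtered out the share was 13.3%. Plk1 encodes polo-like kinase 1, which acts at centrosomes, kinetochores and the midzone. Its levels were 10.71, 10.98 and 11.02 in Mac1- cells, 12.27, 12.12 and 12.29 in Mac1+ cells and 7.53, 8.12 and 7.59 in neutrophils. The 3 groups did not overlap, and the rise from Mac1- to Mac1+ cells was 2.5-fold (1.32 ± 0.19, adjusted p = 0.00186 in limma). Cdc25c, a phosphatase that removes inhibitory phosphates from Cdk1, read 8.12, 7.93 and 8.03, then 9.05, 9.39 and 9.28, then 5.95, 6.03 and 5.07. It rose by 1.21 ± 0.25 in Mac1+ cells (adjusted p = 0.0133), a call lost without Mac1- array 2 or 3 or Mac1+ array 2 or 3, where limma's adjusted p was 0.0535 to 0.0613, and with an offset of 1 (0.0774). Its brightest probe set carries the suffix x, which marks probes that can bind other transcripts.

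The other 2 called genes of this group were Ccna2, cyclin A2 (0.68 ± 0.16), and Foxm1, a transcription factor of late cell cycle genes (0.69 ± 0.16). Their calls held in 12 and 15 of the 19 alternatives. Cdk1 itself, the kinase of mitotic entry, read 12.68, 12.35 and 12.49 in Mac1- cells and 13.13, 13.08 and 13.25 in Mac1+ cells. Its groups were apart, but the difference of 0.65 ± 0.21 did not pass (limma adjusted p = 0.0918). Mki67, the proliferation antigen Ki-67, stood just outside the threshold (0.70 ± 0.19, limma adjusted p = 0.0504). The smallest difference was that of Melk, a kinase of dividing progenitors, at 10.57, 10.90 and 10.97 against 11.37, 11.04 and 10.79. These groups overlapped, and the difference was 0.26 ± 0.20.

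In neutrophils 10 of these 11 genes were lower than in Mac1+ cells and 1 was higher. Of all genes, 28.4% were called lower in this comparison and 19.7% higher, for this and each later role group. With dim genes filtered out these shares were 46.4% and 24.9%. Plk1 fell by 4.48 ± 0.19, which is 22.3-fold, and was the member of this group with the largest fall. Cdc25b, a phosphatase that starts Cdk1 activation at the centrosome, went the other way. It read 8.63, 8.60 and 8.76 in Mac1- cells, 9.16, 9.08 and 8.91 in Mac1+ cells and 9.44, 9.92 and 10.38 in neutrophils. Every neutrophil array was above every c-kit+ array, at 1.82-fold over Mac1+ cells (0.86 ± 0.23, limma adjusted p = 0.0112) and 2.38-fold over Mac1- cells (1.25 ± 0.23, limma adjusted p = 0.00123). Both calls held in all 19 alternatives. It was the one member called higher in neutrophils, and 1 probe set measures it.

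Among 9 genes of the spindle checkpoint and the anaphase trigger, 4 were called higher in Mac1+ cells (7 without neutrophil array 1), with a median difference of 0.57. Ube2c encodes the ubiquitin-conjugating enzyme that works with the anaphase-promoting complex. It read 10.59, 10.24 and 10.51 in Mac1- cells, 12.32, 12.27 and 12.36 in Mac1+ cells and 7.15, 8.69 and 8.38 in neutrophils. Its rise of 3.66-fold (1.87 ± 0.35, limma adjusted p = 0.00747) was the largest of all members, with no overlap between the groups. Cdc20, the activator that brings substrates to that complex, read 12.32, 12.45 and 12.37, then 13.19, 13.07 and 13.12, then 9.85, 9.65 and 9.49. It rose by 0.75 ± 0.14 (limma adjusted p = 0.0089). The other 2 called genes were Bub3, a checkpoint protein that binds kinetochores (0.57 ± 0.14), and Ttk, the Mps1 kinase that starts checkpoint signalling (0.56 ± 0.15). These 2 calls held in 8 and 7 of the 19 alternatives.

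Pttg1 encodes securin, the inhibitor that keeps separase inactive until anaphase. It stood at 11.95, 11.99 and 12.03 in Mac1- cells, at 12.02, 11.76 and 11.74 in Mac1+ cells and at 12.53, 12.14 and 11.90 in neutrophils. The c-kit+ groups overlapped (-0.15 ± 0.18, limma adjusted p = 0.781), and this was the only member with a difference below 0, above 0 once arrays were centred on their medians. Against Mac1+ cells the neutrophil value was 0.35 ± 0.18 higher and did not pass (limma adjusted p = 0.144). It passed with quantile normalization, centring, the mean of probe sets, the probe sets with no x or s suffix, and without neutrophil array 3 (limma adjusted p = 0.0031 to 0.0452). The brightest probe set carries the suffix s, which marks probes shared by several transcripts. The other 2 probe sets of Pttg1 were higher in neutrophils than in Mac1+ cells by 1.49 ± 0.45 (limma adjusted p over all single-gene probe sets 0.0245) and 0.94 ± 0.23 (0.00967). Espl1, which encodes separase itself, fell in neutrophils by 4.78 ± 0.47, from 11.52, 11.62 and 11.92 to 5.59, 7.69 and 7.43. Without neutrophil array 1 its difference was -4.12, or 17.4-fold in place of 27.5-fold.

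The remaining checkpoint genes fell in neutrophils. Bub1, the kinase that marks centromeric chromatin for the checkpoint, read 11.23, 11.19 and 11.26, then 11.90, 11.82 and 11.77, then 5.80, 7.37 and 6.62. It fell by 5.23 ± 0.33 from Mac1+ cells to neutrophils, or 37.7-fold (limma adjusted p = 1.51e-06), the lowest fitted difference of any member. Without neutrophil array 1 its difference was -4.84, and that of Cenpk, at -5.34, was lower. Its difference between the c-kit+ populations, 0.60 ± 0.33, did not pass although those groups were apart. Bub3 fell by 1.23 ± 0.14, the least of the called genes in this group, from 13.35, 13.28 and 13.50 to 12.04, 12.26 and 12.13. Against Mac1- cells its difference was -0.67 ± 0.14, a call that centring of the arrays ended (limma adjusted p = 0.309).

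Of 9 centromere and kinetochore genes, 2 were called higher in Mac1+ cells (7 without neutrophil array 1), although their median difference of 0.95 was the largest of the 7 role groups. Cenpe is a kinesin that carries chromosomes along microtubules to the spindle equator. It read 9.86, 9.50 and 9.79 in Mac1- cells, 10.96, 10.94 and 11.21 in Mac1+ cells and 6.79, 7.22 and 7.07 in neutrophils. It rose 2.49-fold (1.32 ± 0.17, limma adjusted p = 0.00118). Cenpa, the histone variant that marks centromeres, read 12.01, 11.61 and 11.80, then 12.59, 12.55 and 12.72, then 10.25, 10.72 and 10.56. It rose by 0.81 ± 0.17 (limma adjusted p = 0.0153). This call was lost with the mean of its probe sets (0.0971) and without Mac1- array 2 or 3 or any one Mac1+ array (0.0507 to 0.0779).

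The Ndc80 complex, the main microtubule anchor of the kinetochore, has 4 subunits, Ndc80, Nuf2, Spc24 and Spc25. All 4 had non-overlapping c-kit+ groups and differences of 1.21 ± 0.38, 0.95 ± 0.49, 0.69 ± 0.21 and 1.07 ± 0.33, none of which passed. The SD over their neutrophil arrays ran from 0.41 (Spc24) to 1.22 (Nuf2), against a median of 0.38 over all genes. Nuf2, the widest, read 6.41, 8.81 and 7.94 there, against 11.29, 11.11 and 11.18 in Mac1- and 12.20, 12.10 and 12.13 in Mac1+ cells. Cenpf, a large protein of the outer kinetochore, had the second largest difference of all members (1.47 ± 0.42) and just missed the threshold (limma adjusted p = 0.0557).

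Cenph and Cenpk belong to the constitutive centromere network that sits on centromeric chromatin through the whole cycle. Cenph read 9.44, 9.21 and 9.33 in Mac1- cells and 9.28, 9.57 and 9.52 in Mac1+ cells, so the groups overlapped (0.13 ± 0.15, limma adjusted p = 0.751). In neutrophils it read 4.58, 4.42 and 4.61, near the lowest value the offset of 16 allows, and below the array median on every neutrophil array, as was Cenpk. Cenpk read 10.83, 10.33 and 10.46, then 10.87, 10.97 and 10.92, then 6.14, 5.69 and 5.47. From Mac1+ cells to neutrophils it fell by 5.15 ± 0.21, or 35.6-fold. The corresponding difference of Cenph, -4.92 ± 0.15, understates its fall because its neutrophil values lie near the lowest value, so the 2 falls were not ranked. All 9 genes of the group fell in neutrophils, and Cenpa fell least (-2.11 ± 0.17).

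The chromosomal passenger complex corrects wrong attachments and later directs cytokinesis, and 2 of its 4 genes were called higher in Mac1+ cells (3 without neutrophil array 1), with a median difference of 0.48. Incenp, its scaffold, read 12.44, 12.46 and 12.52, then 13.14, 13.12 and 13.30, then 10.53, 10.68 and 10.54. It rose by 0.71 ± 0.13 (limma adjusted p = 0.0068), and the probe sets without an x or s suffix gave 0.91 with an adjusted p of 0.0502. Cdca8, which encodes borealin, read 12.71, 12.76 and 12.73 against 13.29, 13.31 and 13.36. It rose by 0.59 ± 0.13 (limma adjusted p = 0.0194), a call lost whichever c-kit+ array was left out (0.0621 to 0.0861).

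Aurkb, the kinase of the complex, read 11.80, 11.75 and 11.78 in Mac1- cells and 12.08, 12.04 and 12.26 in Mac1+ cells. These groups were apart, but 0.35 ± 0.13 did not pass (limma adjusted p = 0.145). In neutrophils it read 7.57, 7.71 and 7.67, and fell by 4.47 ± 0.13 from Mac1+ cells, the most of this group. Incenp fell least of the 4 (-2.60 ± 0.13). Birc5, which encodes survivin, fell by 3.65 ± 0.23.

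Of 6 spindle motors and assembly factors, 4 were called higher in Mac1+ cells (5 without neutrophil array 1), with a median difference of 0.93. Tpx2 starts microtubule growth around chromosomes and activates Aurora A. It read 10.89, 10.65 and 10.72 in Mac1- cells, 11.77, 11.73 and 12.14 in Mac1+ cells and 7.11, 7.36 and 7.51 in neutrophils. It rose 2.18-fold (1.13 ± 0.17, limma adjusted p = 0.00289), and from Mac1+ cells to neutrophils it fell by 4.56 ± 0.17. Kif2c, a kinesin that shortens microtubules at centromeres, read 10.68, 10.69 and 10.84, then 11.81, 11.80 and 11.74, then 8.02, 7.48 and 7.57. It rose by 1.05 ± 0.17 (limma adjusted p = 0.00355). Kif4, a chromokinesin, and Kif18a, which damps chromosome oscillation, were the other called genes (0.98 ± 0.16 and 0.87 ± 0.21). The call of Kif4 held in all 19 alternatives. That of Kif18a held in 12, and was lost with the mean of its probe sets (limma adjusted p = 0.154).

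Kif22, another chromokinesin, showed the smallest difference between the c-kit+ populations in this group and the smallest fall in neutrophils. Its brightest probe set read 12.55, 12.49 and 12.53, then 12.96, 12.93 and 13.01, then 11.51, 10.71 and 10.16. The difference of 0.44 ± 0.29 did not pass, and the difference between neutrophils and Mac1+ cells was -2.17 ± 0.29. That probe set has the suffix x, and the other 2 probe sets of Kif22 were called higher in Mac1+ cells, by 0.99 ± 0.21 and 1.06 ± 0.21 (limma adjusted p over all single-gene probe sets 0.0192 and 0.0144). Between neutrophils and Mac1+ cells they differed by -3.90 and -4.25. For Kif22, then, the size of both differences depended on the probe set.

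In the group of the central spindle and cytokinesis, 2 of 6 genes were called higher in Mac1+ cells (4 without neutrophil array 1), with a median difference of 0.74. Prc1, which bundles the antiparallel microtubules of the midzone, read 11.39, 11.46 and 11.57, then 12.64, 12.44 and 12.54, then 8.38, 8.86 and 8.80. It rose 2.09-fold (1.07 ± 0.16, limma adjusted p = 0.00283). Its brightest probe set has the suffix s, and without x and s probe sets the difference of 1.36 did not pass (limma adjusted p = 0.0846). Kif20a, a kinesin that brings the passenger complex to the midzone, read 9.89, 9.61 and 9.79 against 10.73, 10.68 and 10.85. The groups were apart, but the difference of 0.99 ± 0.37 did not pass, with neutrophil values of 5.16, 6.56 and 6.76 behind the shared spread. It fell by 4.59 ± 0.37 from Mac1+ cells to neutrophils, the most in this group (a difference of -4.09 without neutrophil array 1). Without neutrophil array 1 the difference between the c-kit+ populations passed (limma adjusted p = 0.000595).

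Anln encodes anillin, a scaffold of the contractile ring. It read 12.38, 12.63 and 12.82 in Mac1- cells and 13.17, 12.74 and 12.08 in Mac1+ cells, which overlapped (0.06 ± 0.33, limma adjusted p = 0.975). Its Mac1+ values had the largest SD of any member in that population, 0.55. In neutrophils it read 10.77, 10.16 and 9.71 and fell by 2.45 ± 0.33 from Mac1+ cells.

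Kif23 is the motor subunit of centralspindlin, Racgap1 is its partner subunit, and Ect2 is a cytokinesis factor that they recruit to the midzone. Kif23 read 11.54, 11.20 and 11.36 in Mac1- cells, 12.14, 12.11 and 12.28 in Mac1+ cells and 11.68, 11.71 and 11.61 in neutrophils. It rose by 0.81 ± 0.14 between the c-kit+ populations (limma adjusted p = 0.00547). Its neutrophil level lay between those of the other populations, with no overlap. From Mac1+ cells it fell by 0.51 ± 0.14 (limma adjusted p = 0.015), the least of any member called lower. That call was lost with quantile normalization (0.0593), centring (0.218) and without Mac1+ array 3 (0.0553). Against Mac1- cells the difference was 0.30 ± 0.14 and did not pass, though it did with 4 alternatives. Of the other 2 probe sets of Kif23, 1 differed by -1.71 ± 0.49 between neutrophils and Mac1+ cells and 1 by 0.49 ± 0.24. Its partners had larger differences, -4.24 ± 0.41 for Racgap1 and -4.20 ± 0.35 for Ect2 (-3.70 and -3.74 without neutrophil array 1). That the falls differ between these genes was not tested.

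Of 6 genes of chromosome condensation, 1 was called higher in Mac1+ cells, where 6.31% of all genes were. Without neutrophil array 1 the count was 5, where 12.0% of all genes were. The median difference of 0.44 was the smallest of the 7 groups. Ncaph, the kleisin subunit of condensin I, read 11.72, 11.54 and 11.64 against 12.23, 12.11 and 12.24. Its rise of 0.56 ± 0.15 was just past the threshold (limma adjusted p = 0.0463). It held in 7 of 19 alternatives, and was lost without any one c-kit+ array or neutrophil array 3 (0.0539 to 0.181). Quantile normalization, an offset of 1, the mean of probe sets and the replicate block also ended it (limma adjusted p = 0.0743 to 0.0847). Its brightest probe set has the suffix x, and without x and s probe sets the limma adjusted p was 0.452. Smc2, the ATPase shared by both condensins, read 12.43, 12.58 and 12.63 in Mac1- cells and 13.03, 12.76 and 12.77 in Mac1+ cells. The difference of 0.31 ± 0.17 did not pass, whereas 2 of its 4 dimmer probe sets did (1.09 ± 0.23 and 1.06 ± 0.18, limma adjusted p over all single-gene probe sets 0.0183 and 0.0053).

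In neutrophils all 6 condensation genes were lower than in Mac1+ cells. Smc4, the ATPase partner of Smc2, read 12.65, 12.65 and 12.66, then 13.17, 13.06 and 13.24, then 10.99, 11.62 and 11.35, and fell least (-1.84 ± 0.17). Smc2 read 8.44, 8.87 and 8.35 in neutrophils (-4.30 ± 0.17). Ncapg, another condensin I subunit, had the lowest fitted difference of the group, -4.57 ± 0.74, but its neutrophil arrays read 4.82, 8.27 and 7.75, and without array 1 the difference was -3.50. Array 1 was thus far below the others, and the SD of 1.86 was the largest of any member. Top2a, the topoisomerase that disentangles sister chromatids, fell by 3.45 ± 0.14, with neutrophil values of 9.89, 10.13 and 9.93.

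**Figure D2:**
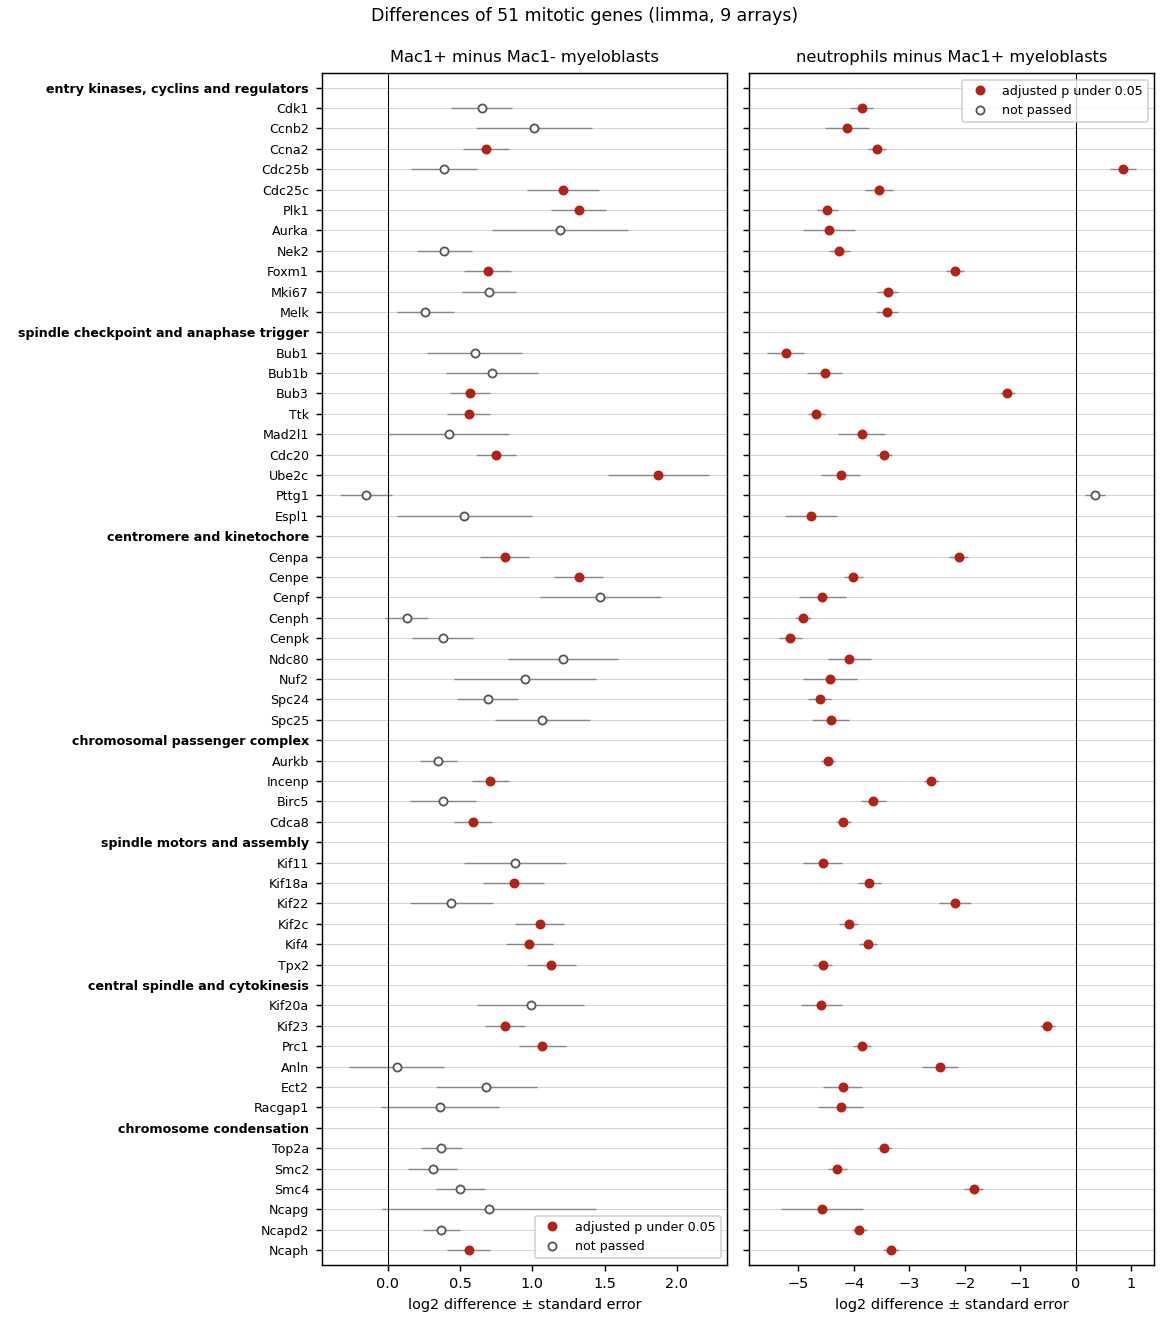
Difference ± standard error of each of the 51 genes on the log2(intensity + 16) scale, for Mac1+ minus Mac1- myeloblasts at left and neutrophils minus Mac1+ myeloblasts at right, with filled points at limma adjusted p under 0.05 over all genes. At left 19 points are filled and all but Pttg1 lie above 0; at right 49 filled points lie below 0 and Cdc25b lies above it. The horizontal scales differ between the panels.

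Over all roles, the neutrophil comparison asks how far RNA of the division programme is lower in the cells sorted as neutrophils. Whether any of these cells were still dividing was not measured. The 2 neutrophil comparisons share their neutrophil arrays, and that with Mac1+ cells shares its Mac1+ arrays with the first comparison. Against Mac1+ cells, 49 of 51 members were called lower, where 28.4% of all genes were, and 1 was called higher, where 19.7% of all genes were. The same 49 members had no neutrophil array overlapping a Mac1+ array, against 30.9% of all genes, and the median difference was -4.08 (16.95-fold lower) against 0.05 over all genes. Against Mac1- cells, 48 were called lower, where 30.0% of all genes were, and 1 was called higher, where 22.6% of all genes were. The median difference there was -3.15, or 8.88-fold lower, and -2.89 without neutrophil array 1. With dim genes filtered out, 46.4% of genes were called lower and 24.9% higher than in Mac1+ cells. Against Mac1- cells these shares were 46.9% and 28.8%. The median difference of the genes kept was -0.41 in each comparison. Aurkb, whose 2 probe sets carry the suffix x or s, was measured in 18 of the 19 alternatives. Of the 50 members called against Mac1+ cells, 49 were called under every alternative that measured them, the exception being Kif23. Of the 49 called against Mac1- cells, 47 were, the exceptions being Bub3 and Cenpa, whose call the mean of its 3 probe sets ended (limma adjusted p = 0.542).

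Neutrophil levels were low but mostly not at the floor. Each member was above its array's median on all 6 c-kit+ arrays. In neutrophils 14, 3 and 3 members were below the array median on arrays 1, 2 and 3, and 2 were on all 3. That median, over all probe sets, was itself higher on array 1, at an intensity of 61.8 against 45.4 and 40.9. The 3 counts thus rest on unlike bars. Members are also the brightest probe sets of their genes, and the share of all genes below the median was not determined. The members' median level per array was 11.23, 11.15 and 11.26 in Mac1- cells, 12.08, 12.04 and 12.13 in Mac1+ cells and 7.36, 8.53 and 7.94 in neutrophils. On neutrophil array 1, 36 members were below both other neutrophil arrays and 9 were above both. The median difference of array 1 from the mean of arrays 2 and 3 was -0.36 over members and 0.12 over all genes, 49.4% of which were higher on array 1 than on both others. Some other genes also stood apart on that array. The list of maturity markers holds 3 primary granule genes, which are transcribed in early precursors: Mpo stood at 12.80, 10.76 and 9.63, Elane at 11.11, 8.87 and 7.81, and Prtn3 at 11.72, 9.74 and 8.75 on arrays 1 to 3. The list of 10 maturity markers as a whole did not, with median levels of 13.28, 13.35 and 13.43. The log2 of the summed intensity was 11.48, 10.30 and 10.08 for B cell markers and 14.48, 14.19 and 13.88 for monocyte and macrophage markers. Such a sum rests mostly on the brightest genes, and the median level of the monocyte and macrophage markers was 9.85, 9.97 and 9.71. The 3′ to 5′ ratio of its Gapdh control probe sets was 2.70, against 1.92 to 2.47 on the other arrays, whereas that of Actb was 1.55, against 1.52 to 2.49. The part of these values in the members' spread was not tested. Without array 1 the members' median difference between neutrophils and Mac1+ cells was -3.71 in place of -4.08, and the fold of 4 of the 51 members, Aurka, Espl1, Nuf2 and Ncapg, moved by more than 1.5 times.

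**Figure D3:**
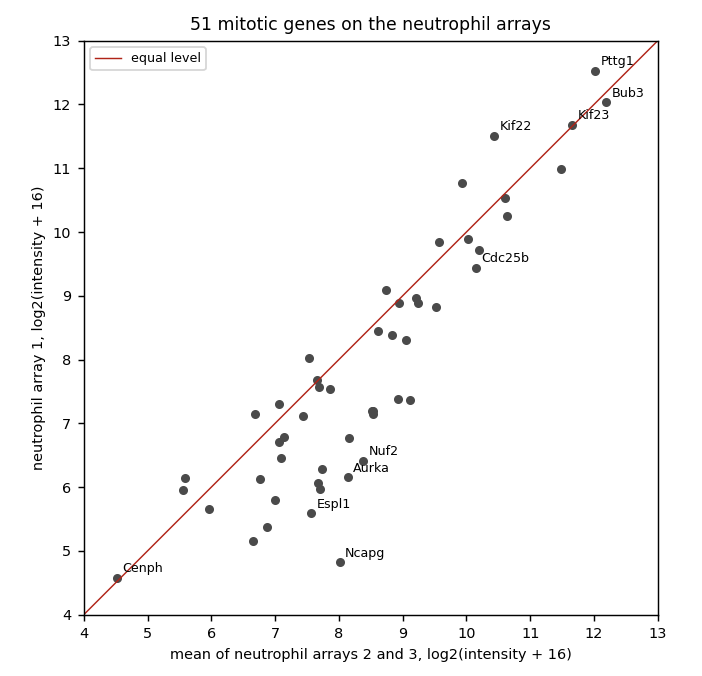
Each of the 51 genes on neutrophil array 1 (vertical) against the mean of neutrophil arrays 2 and 3 (horizontal), both as log2(intensity + 16), with the line of equal level. Most points lie below the line, with Ncapg farthest from it, while Kif22 and Pttg1 lie above and Bub3, Kif23 and Cenph near it.

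DNA replication and the rest of the mitotic machinery give the measure of how far the difference between the c-kit+ populations extends. Of 38 measured genes of S phase, such as Mcm helicase and polymerase subunits, 0 were called higher in Mac1+ cells and 2 lower, Gins1 (-0.73) and Chaf1b (-0.59), with a median difference of -0.08. The 2 are 5.26% of the list, near the 5.51% of all genes called lower and below the 10.1% with dim genes filtered out. At an unadjusted p under 0.05, limma gave 1 higher and 4 lower. Of 130 other mitotic genes, 17 were called higher and 0 lower, with a median of 0.39 and 108 differences above 0. The 17 are 13.1% of the list, against 6.31% of all genes. With dim genes filtered out, 13.3% of genes were called higher. The list's share of calls, taken without that filter, was thus not above that of brighter genes. At an unadjusted p under 0.05 limma's counts for the list were 49 and 0. Without neutrophil array 1 it called 61 and 0, where it called 12.0% of all genes higher. The called genes with the largest differences were Cdkn3, a phosphatase of Cdk1 and Cdk2 (1.83 ± 0.20), Aspm, a spindle pole protein (1.42 ± 0.27), Depdc1a (1.25 ± 0.26) and Kif18b, a microtubule-shortening kinesin (1.22 ± 0.15). The difference between the members and these lists was not tested. In neutrophils all 38 S phase genes were lower than in Mac1+ cells, with a median of -4.29. Of the 130 other mitotic genes, 112 were lower (86.2%, against 28.4% of all genes) and 7 higher (5.38%, against 19.7%). Their median was -2.55. With dim genes filtered out, 46.4% of genes were called lower and 24.9% higher.

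**Figure D4:**
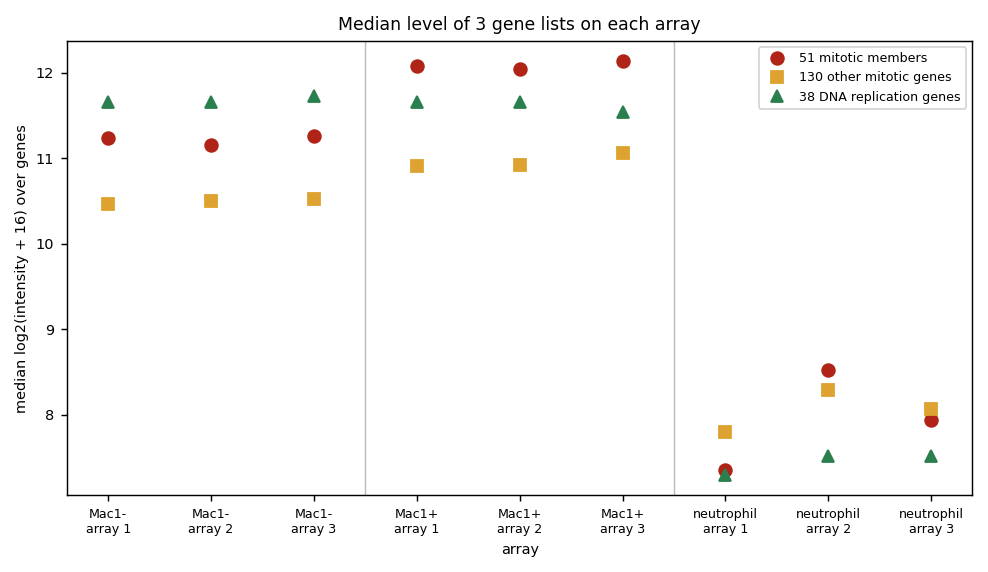
Median of log2(intensity + 16) over the 51 members, the 130 other mitotic genes and the 38 DNA replication genes on each of the 9 arrays. From Mac1- to Mac1+ arrays the members' median moved from between 11.15 and 11.26 to between 12.04 and 12.13, while that of DNA replication genes stayed between 11.54 and 11.73.

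Markers of maturity and of monocytes and macrophages also differed between the c-kit+ populations. Of all genes, 6.31% were called higher in Mac1+ cells and 5.51% lower. Of 10 neutrophil maturity markers, 6 were called higher in Mac1+ cells and 0 lower, with a median difference of 1.68. The called genes were Ltf, Ngp, Camp, Mmp9, Cxcr2 and Csf3r, and the list's median level was 9.55, 9.77 and 8.92 in Mac1- cells and 13.64, 13.63 and 13.78 in Mac1+ cells. Of 9 monocyte and macrophage markers, 8 were called lower in Mac1+ cells and 0 higher, with a median difference of -2.50. Their summed intensity on the log2 scale was 15.62 to 15.72 in Mac1- cells, 12.32 to 12.60 in Mac1+ cells and 13.88 to 14.48 in neutrophils. The part of either list in the members' difference was not tested. Of 9 measured erythroid markers, 1 was called higher, Car2 (0.64). The log2 of their summed intensity was 9.07 to 9.26 in Mac1- cells, 9.11 to 9.44 in Mac1+ cells and 8.49 to 9.61 in neutrophils. Hba-a1, an alpha globin, stood between 4.24 and 4.86 on the c-kit+ arrays, near the lowest value. B cell markers, of which 0 of 7 were called (1 lower at an unadjusted p under 0.05 in limma), summed to 13.16 to 13.71 in Mac1- cells and 11.77 to 13.69 in Mac1+ cells, where array 3 was the lowest. In neutrophils they summed to 10.08 to 11.48. Of 6 megakaryocyte markers 1 was called higher in Mac1+ cells (Gp1bb, 2.24 ± 0.56), of 5 mast cell and basophil markers 1 was called lower (Cpa3, -0.81 ± 0.22), and of 7 T and NK cell and 3 eosinophil markers 0 were called, with 0 at an unadjusted p under 0.05 in limma. Short lists with 1 call or 0 were not read as a difference of the cell type.

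Several members have further probe sets, 64 in all, which bear on how far each value rests on 1 set of probes. Here a member counts as called if its brightest probe set passed in the fit of all single-gene probe sets. Between the c-kit+ populations this leaves out Bub3, Ttk and Ncaph. For the members so called higher in Mac1+ cells, 25 of 26 further probe sets had a difference of the same direction, 11 of them called, and 0 were called the other way. Those of Ttk (0.68 ± 0.44) and Ncaph (0.58 ± 0.36) were above 0. Further probe sets of Bub3 ran both ways, at -0.42 ± 0.19, -0.09 ± 0.3, 0.32 ± 0.53 and 0.45 ± 0.35. The mean of Bub3's probe sets did not pass (limma adjusted p = 0.718). For members called between neutrophils and Mac1+ cells, 56 of 62 had the same direction, 44 of them called, and 0 were called the other way. Against Mac1- cells fewer had the same direction, 46 of 60, with 36 of them called and 0 called the other way. The 26, 62 and 60 probe sets are dimmer than those chosen and share their gene, so they are not independent evidence.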

How the data were processed

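Per the labels' protocols, RNA of 3 sorted populations was extracted with an RNeasy kit, examined with a bioanalyzer, put through 2 cycles of amplification and biotin-labelled. The authors deposited intensity values on a linear scale for 45101 probe sets on 9 arrays. How they were summarised, corrected for background and scaled is not stated there or in the file header. Repeated amplification favours 3′ ends and can add spread. The number of arrays limits the precision.

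The deposited values were analysed without further scaling, as log2(intensity + 16). The platform annotation names 1 gene for 34945 probe sets, several for 932, and 64 are controls. Of the single-gene probe sets, 99.4% matched a GRCm38.p6 gene table by identifier, and 0 member symbols changed. The probe set with the highest mean stood for its gene. limma 3.58.1 (R 4.3.3) tested differences in 1 linear model of 3 populations with moderated variances, and called at a Benjamini-Hochberg adjusted p under 0.05 over 18193 genes. The procedure was tested on simulated data. Further probe sets were tested in a fit of all single-gene probe sets. Arrays with the same replicate number showed no pairing in the correlation of their deviations (-0.307 to 0.132), so no block was used in the main model. Such correlations cannot exclude pairing.

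Members and lists were chosen with earlier results of these data known. Values on every array are given, in each role group, for the 2 called genes with the largest difference between the c-kit+ populations, the gene with the smallest, the genes with the largest and smallest difference between neutrophils and Mac1+ cells, and called genes that ran against their group. Cdk1, Espl1 and Nuf2 were added after their values were seen. Other mitotic genes named are the 4 with the largest called difference in each direction. Each alternative changed 1 choice: quantile normalization, centring on array medians, an offset of 1 or 64, a filter on genes below percentile 40 of mean level, the mean of probe sets, probe sets without the suffix x or s, a trended robust prior, a replicate block, a fit of the 2 populations compared, and the omission of each array.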

Additional observations from a re-analysis of the deposited data

How the results depend on the processing

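Of 51 members, 19 were called higher in Mac1+ than in Mac1- cells; limma called 29 with an offset of 64, 45 in a fit of the 2 populations, and between 10 and 40 when 1 array was left out. The replicate block gave 13. Correlations of the arrays' deviations showed no pairing by replicate number, but they cannot exclude it. For members called higher in neutrophils than in Mac1+ cells, 1 in the main model, 2 were called with quantile normalization, with centred arrays, with the mean of probe sets and without x and s probe sets, and between 1 and 2 when 1 array was left out, the addition being Pttg1. Against Mac1- cells, where 1 was called, quantile normalization, an offset of 64, the mean of probe sets, the omission of x and s probe sets and the trended robust prior each gave 2, and centring gave 3. Counts of members called lower stayed within 1.5 times of 0, 49 and 48 in every alternative run, and no difference of a called member changed sign. Of the values of the 26 genes chosen by rule under the alternatives, the Mac1+ against Mac1- comparison kept 441 on the same side of the threshold, gained 19 and lost 33. The comparisons of neutrophils with Mac1+ and with Mac1- cells gained 5 and 7 and lost 3 and 1. With centring, the all-gene median went from -0.01 to 0.17, from 0.05 to 0.33 and from 0.05 to 0.51 in the 3 comparisons, and the share of calls that were higher from 53.4% to 70.8%, from 41.0% to 59.0% and from 42.9% to 65.8%. Levels near the lowest value have no order, and a fall to them is understated.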

Other observations

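Of 130 other mitotic genes, 7 (5.38%) were called higher in neutrophils than in Mac1+ cells, a smaller share than the 19.7% of all genes. Kif15, a spindle kinesin, read 4.48, 4.41 and 4.43 in Mac1- cells, 4.60, 4.45 and 4.38 in Mac1+ cells and 8.37, 6.61 and 6.02 in neutrophils, with array 1 the highest (2.52 ± 0.49, limma adjusted p = 0.00229). Ndel1, a dynein regulator that also acts outside mitosis, read 11.10, 11.08 and 11.13 in Mac1+ cells and 13.10, 12.86 and 12.78 in neutrophils (1.81 ± 0.14, limma adjusted p = 4.53e-06). Lin52, a subunit of the DREAM and MuvB complexes (1.23 ± 0.43, with overlapping groups near the lowest values), and Kif2a, a microtubule-shortening kinesin with roles in non-dividing cells (0.99 ± 0.24), were also called. Lin54, the subunit that binds the CHR element, was 0.50 ± 0.15 higher than in Mac1+ cells and 0.97 ± 0.15 higher than in Mac1- cells. Cdc14a, a phosphatase of mitotic exit, was higher in Mac1+ than in Mac1- cells (0.84 ± 0.14) and higher again in neutrophils (0.78 ± 0.14).

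Among the other mitotic genes, the largest falls from Mac1+ cells to neutrophils were those of Bora, the Aurora A cofactor that activates Plk1 (-5.49 ± 0.20), and of Wee1, the kinase that restrains Cdk1. Wee1 read 12.07, 11.89 and 12.04 in Mac1+ cells and 5.39, 7.39 and 7.20 in neutrophils (-5.35 ± 0.45). Between the c-kit+ populations Wee1 differed by 0.06 ± 0.45 and did not pass. Rcc1, the chromatin-bound exchange factor of Ran, stood at 11.24, 11.04 and 11.00 in Mac1- cells and at 10.38, 10.63 and 10.79 in Mac1+ cells. Those groups did not overlap, and the difference of -0.49 ± 0.23 did not pass (limma adjusted p = 0.267). In neutrophils Rcc1 read 5.94, 6.41 and 5.51 (-5.14 ± 0.23 against Mac1- cells).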
